A study of Mus musculus with 6 samples.

Results

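The Notch receptors Notch1, Notch2, Notch3 and Notch4, the ligands Jag2 and Dll4, and the target genes Hey1, Hey2, Heyl and Hes1 were followed in aortic arches of mice that carried marrow with or without miR-21. These 10 genes were read by 12 probes, which were all the non-control probes whose gene name in the scanner files equalled one of them, out of 55681 probes on the array. Levels were compared between knockout and wild-type marrow, and 11 of the 12 probes were bright enough to be tested. None of the 11 passed the test adjusted over all tested probes. Hey1 stood closest to it, with all 3 knockout arrays below all 3 wild-type arrays.

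The arches came from female C57BL/6 mice of genotype Mir21+/+, which all received X-rays over the whole body in 2 fractions of 5 Gy within 4 h and donor marrow on the next day. In the group BM Mir21 WT, called wild-type here, the donors were Mir21+/+, and in the group BM Mir21 KO, called knockout here, they were Mir21–/–. A high-fat diet started 3 weeks after irradiation in both groups and was fed for 12 weeks. Each group held 3 mice and 1 array per mouse; the labels state no age. The recipients were Mir21+/+ in both groups, so that only cells derived from donor marrow could lack the miRNA, and the share of such cells in the arch is not given. The array carried 0 probes named Mir21 or Mir21a, so the knockout could not be checked on it.

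Notch receptors sit on the surface of a cell and bind Jagged or Delta-like ligands on its neighbour. Binding exposes the receptor to cleavage by an ADAM protease and then by gamma-secretase, which frees the intracellular part to enter the nucleus, where it joins the DNA-binding protein Rbpj and Mastermind co-activators. The Hes and Hey genes, which encode basic helix-loop-helix repressors, are the best known targets of this complex. In arteries, Notch1, Notch4 and Dll4 are known from endothelium, Notch3 and Heyl from smooth muscle and pericytes, and Hey1 and Hey2 from arterial specification.

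The miRNA that the knockout donors lacked is shown with its seed, bases 2 to 8, in capitals. RefSeq places it on the minus strand of GRCm38.p6 at chr11:86584120-86584141.
mmu-miR-21a-5p: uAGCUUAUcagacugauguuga
The brighter Notch1 probe and the dimmer Notch2 probe are shown whole because each of these receptors had a second probe to set beside it, and the first 30 of the 60 bases of the Hey1 probe are shown because Hey1 came nearest to the threshold. On mm9 the files place them on the minus strand at chr2:26319440-26319499, the plus strand at chr3:97951233-97951292 and, for the whole Hey1 probe, the minus strand at chr3:8663432-8663491.
Notch1 probe 1: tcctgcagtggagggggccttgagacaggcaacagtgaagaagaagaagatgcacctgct
Notch2 probe 2: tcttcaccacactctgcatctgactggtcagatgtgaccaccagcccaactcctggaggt
Hey1 probe 1: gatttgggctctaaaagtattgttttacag
Whether the probes lie in exons, introns or untranslated regions was not analysed here.

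Rbpj binds the letters GTGGGAA, which were searched on both strands of RefSeq promoters on GRCm38.p6, from 250 bases before to 50 bases after each gene's start. Promoters were found for 7 of the 10 members, and 1 of these 7, that of Hey2, held the motif. The share was 6.38% of 32851 promoters of the same length of 300 bases. No promoter was found for Hey1, Heyl and Hes1, so Hey2 was the only member target searched. The member promoters without a match were those of the receptors and ligands. Hey2 held it at 2 places, starting at base -207 on the minus strand and at base -4 on the plus strand, counted from the gene's start. Of the other Hes genes with a promoter, Hes5 held 2 matches, Hes7 held 1 and Hes6 held 0. The Hey2 promoter lies on the minus strand at chr10:30842734-30843033, and both matches are in capitals.
Hey2 promoter: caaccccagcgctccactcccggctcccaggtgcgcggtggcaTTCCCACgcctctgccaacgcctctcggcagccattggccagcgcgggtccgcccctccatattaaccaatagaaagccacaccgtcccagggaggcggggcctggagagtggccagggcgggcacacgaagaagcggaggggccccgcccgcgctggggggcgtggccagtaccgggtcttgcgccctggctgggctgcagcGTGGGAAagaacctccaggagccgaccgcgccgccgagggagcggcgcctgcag
A match is a description of these letters and not evidence of binding, and no match says only that the letters are not in this window.

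Values below are levels on a log2 scale on which 0 is the 75th percentile of signal on the same array, so that a level of 1 is a signal of 2 times that percentile. Differences are knockout minus wild-type means on that log2 scale, with a standard error (SE) and a 95% interval from limma. Levels of different probes are not comparable, since probes differ in how strongly they bind. The arrays had 66.4% to 74.4% of spots well above background and 0 saturated spots, and the lowest share, as well as the lowest 75th percentile of signal (239 against 329 to 407), belonged to knockout replicate 3. All arrays were on 1 slide and in 1 scan. The wild-type arrays filled slide row 1 and the knockout arrays row 2, so that the slide's rows and the marrow groups cannot be told apart. All 14 endothelial and all 10 smooth muscle markers on the lists used here were well above background on all 6 arrays, and so were all 10 cardiac and all 10 fat-cell markers. In such bulk tissue, fewer cells of a type and less RNA per cell cannot be told apart.

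**Figure D1:**
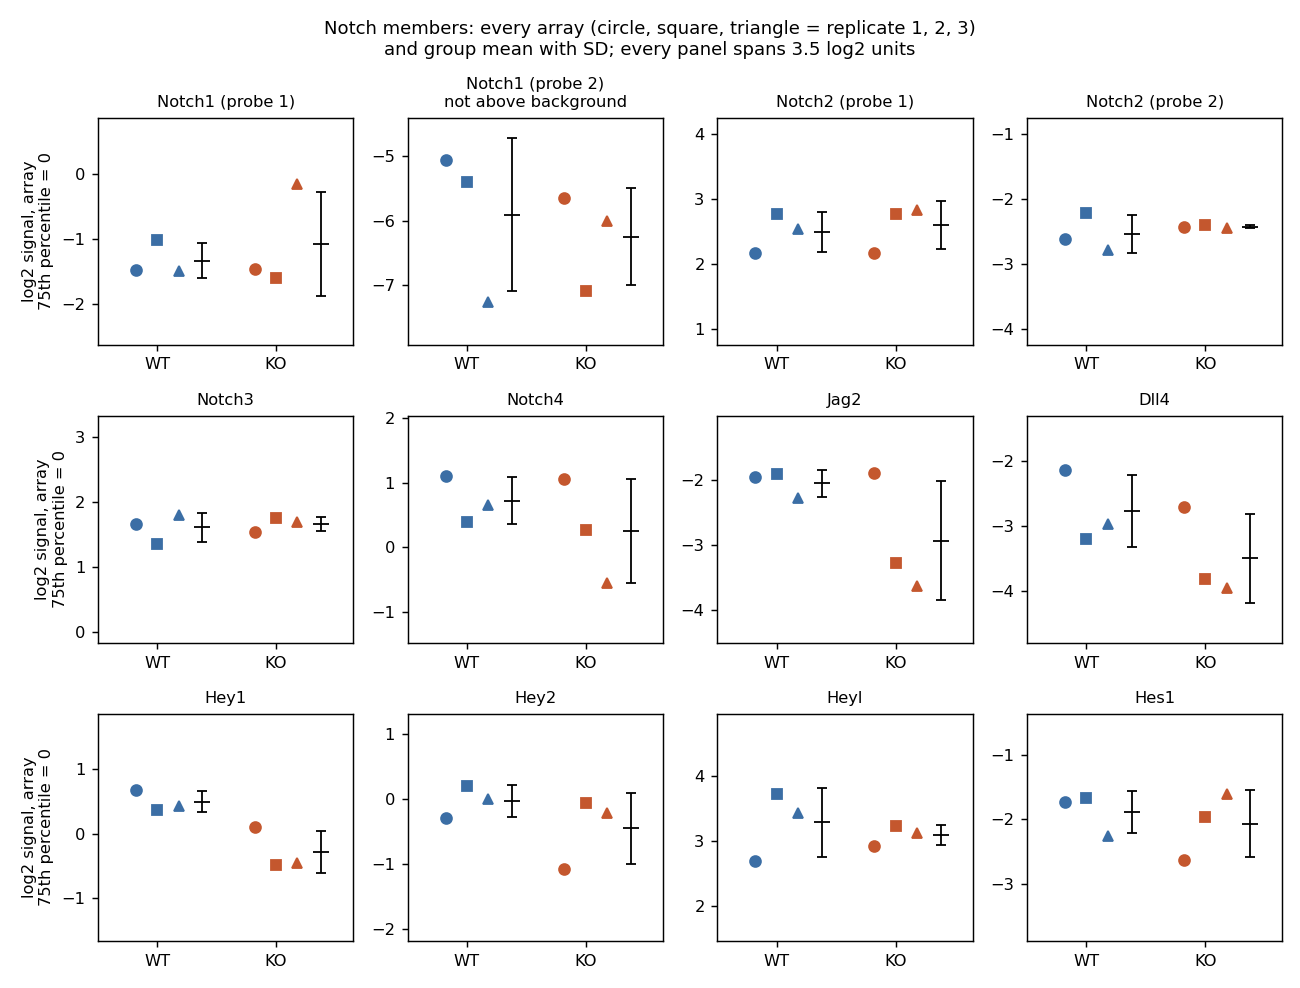
Log2 signal of each member probe (y axis, 0 is the array's 75th percentile) on the 3 wild-type and 3 knockout arrays, with the group mean and SD beside the points. The Hey1 groups do not overlap, Jag2 and Dll4 are lowest on knockout replicates 2 and 3, and Notch1 is highest on knockout replicate 3.

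Notch3, the receptor of vascular smooth muscle, stood at 1.67, 1.36 and 1.80 in the wild-type group against 1.54, 1.76 and 1.69 in the knockout group. The groups overlapped fully and their means, 1.61 ± 0.23 and 1.66 ± 0.11 (SD, n = 3 per group), differed by 0.05 ± 0.18 (SE). The 95% interval ran from -0.36 to 0.46, which limits any change to between 0.781 and 1.38 times the wild-type level (limma, adjusted p = 0.949). This was the narrowest interval among the 10 genes' tested probes, and the spread within groups was at the 26.1 percentile of all tested probes.

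Notch2, a receptor of many cell types including smooth muscle, was read by a pair of probes 2681 bases apart. The brighter probe, on the plus strand at chr3:97953914-97953973 of mm9, stood at 2.17, 2.78 and 2.55 in the wild-type group against 2.17, 2.78 and 2.84 in the knockout group. Its groups overlapped, with a difference of 0.10 ± 0.25 (SE). The dimmer probe, whose sequence is given above, read -2.62, -2.21 and -2.78 against -2.42, -2.40 and -2.45, with a difference of 0.11 ± 0.19. Both probes thus gave a difference near 0, with 95% intervals from -0.48 to 0.67 and from -0.33 to 0.54, and the 3 knockout values of the dimmer probe all lay within the range of the wild-type values.

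Notch1, a receptor of endothelium and of developing T cells, was measured by only 1 of its 2 probes. That probe gave -1.48, -1.01 and -1.49 in wild-type mice, then -1.45, -1.60 and -0.15 in knockout mice. Knockout replicate 3 was the highest of the 6 arrays and knockout replicate 2 the lowest. The difference was 0.26 ± 0.38 (SE; limma, adjusted p = 0.866), and it was -0.20 without knockout replicate 3. The other probe lies 4810 bases away towards the gene's 3' end, at chr2:26314630-26314689 of mm9, and was well above background on 0 of 6 arrays. It was not tested, and it gives no fold.

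Notch4, a receptor largely limited to endothelium, gave 1.11, 0.40 and 0.66 in wild-type mice, then 1.05, 0.27 and -0.55 in knockout mice. Knockout replicate 1 lay beside the highest wild-type array, and knockout replicate 3 lay below all the others. The means were 0.72 ± 0.36 and 0.26 ± 0.80 (SD, n = 3 per group), with a difference of -0.46 ± 0.40 (SE; limma, adjusted p = 0.761). Without knockout replicate 3 the difference was -0.06, without knockout replicate 1 it was -0.86, and without wild-type replicate 1 it was -0.27.

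Jag2, a Jagged ligand, had the largest difference of the members. Its wild-type levels were -1.95, -1.91 and -2.28, and its knockout levels were -1.89, -3.28 and -3.63. Knockout replicates 2 and 3 were below every wild-type array, while knockout replicate 1 was above every one of them. The difference was -0.88 ± 0.42 (SE), a level 1.84-fold lower with knockout marrow, and the interval from -1.87 to 0.10 included 0 (limma, adjusted p = 0.606). Without knockout replicate 1 the difference was -1.41 (adjusted p = 0.0886), and without knockout replicate 3 it was -0.53.

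Dll4, the Delta-like ligand of arterial and sprouting endothelium, had wild-type levels of -2.14, -3.20 and -2.98 and knockout levels of -2.71, -3.82 and -3.96. Knockout replicates 2 and 3 again lay below every wild-type array, and knockout replicate 1 lay among them. The difference was -0.72 ± 0.40 (SE; limma, adjusted p = 0.647), and it was -1.12 without knockout replicate 1, -0.49 without knockout replicate 3 and -0.41 without wild-type replicate 1. Jag2 and Dll4 were dim, with processed signals on the scanner's linear scale from 19.3 to 103.7 for Jag2 and from 15.4 to 91.1 for Dll4. Both differences were smaller under normexp background correction with an offset of 50, at -0.24 for Jag2 and -0.14 for Dll4.

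Hey1, a Hey repressor induced by Notch in arterial endothelium, had wild-type levels of 0.68, 0.37 and 0.42 and knockout levels of 0.10, -0.48 and -0.45. Every knockout array was below every wild-type array, and the nearest pair, knockout replicate 1 and wild-type replicate 2, were 0.10 and 0.37. The means were 0.49 ± 0.16 and -0.28 ± 0.32 (SD, n = 3 per group). The difference was -0.77 ± 0.21 (SE), a level 1.70-fold lower, with a 95% interval from -1.25 to -0.28. Its unadjusted p of 0.00685 was matched or undercut by 1.54% of all tested probes, and the adjusted p was 0.445 (limma), so the difference did not pass. It kept its sign under all 16 alternatives, from -0.95 to -0.39, and its adjusted p ran from 0.108 to 1. Because the groups did not overlap, leaving arrays out or weighting them could not have changed that sign.

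Hey2, the Hey repressor whose promoter is shown above, stood at -0.29, 0.20 and 0.00 in the wild-type group against -1.08, -0.06 and -0.21 in the knockout group. Knockout replicate 1 lay below the other 5 arrays, while the remaining knockout arrays lay within the wild-type range. The difference was -0.42 ± 0.29 (SE; limma, adjusted p = 0.711), and it was -0.10 without knockout replicate 1. Hey1 and Hey2 had their lowest values on different knockout arrays.

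Heyl, the Hey gene of smooth muscle and pericytes, had wild-type levels of 2.69, 3.73 and 3.43 and knockout levels of 2.92, 3.23 and 3.12. All 3 knockout values lay inside the wild-type range, and the difference was -0.19 ± 0.27 (SE; limma, adjusted p = 0.859). Hes1, a target of Notch in many tissues, stood at -1.73, -1.67 and -2.26 in the wild-type group against -2.63, -1.96 and -1.61 in the knockout group. Knockout replicate 1 was the lowest and knockout replicate 3 the highest of all 6 for Hes1, and the difference was -0.18 ± 0.29 (limma, adjusted p = 0.879). Hes1 was dim too, with processed signals from 53.2 to 121.1, and under normexp its difference was -0.04.

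**Figure D2:**
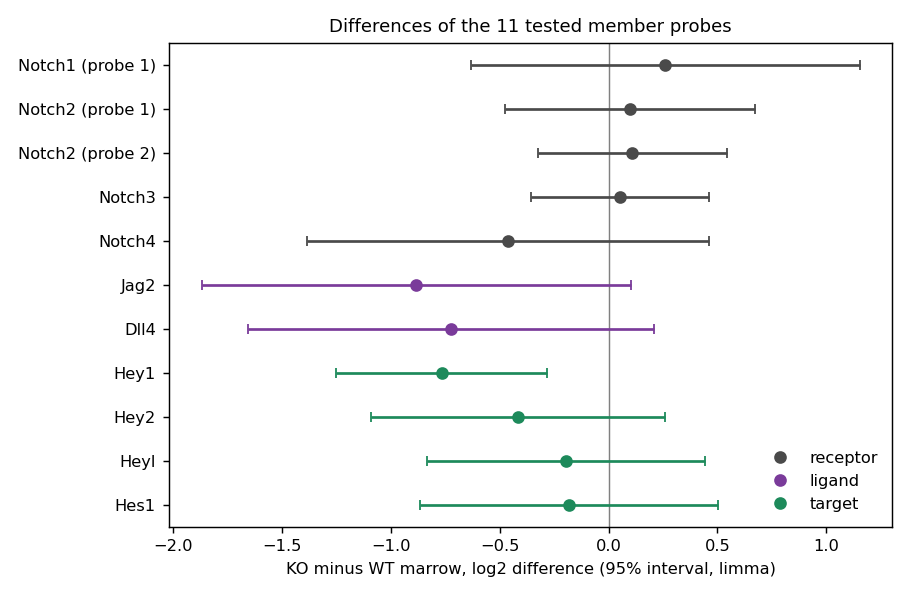
Knockout minus wild-type difference of the 11 tested member probes on the log2 scale (x axis), with 95% intervals from limma; colours mark receptors, ligands and targets. The interval of Hey1 runs from -1.25 to -0.28, and those of the other 10 probes include 0.

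Across the members, 0 of the 11 tested probes passed the adjusted test (limma), as against 0.00261% of all 38339 tested probes, which is 1 probe. At an unadjusted p below 0.05 there was 1 of the 11, Hey1, against 8.71% of all tested probes. By direction, 1 of the 11 was lower and 0 were higher, against 4.27% and 4.44% of all tested probes. Groups did not overlap for 1 of the 11, again Hey1, against 13.7% of all tested probes, and knockout arrays lay all below wild-type arrays for 6.14%. These counts of 1 do not set the members apart from the array as a whole. The median difference over the 11 probes was -0.19, and that over all tested probes was 0.02. With 1 array left out, the members' median ran from -0.37 (without wild-type replicate 3) to -0.07 (without wild-type replicate 2), and it was -0.10 without knockout replicate 1. Under normexp it was -0.14, and the median over all tested probes 0.10. Differences were below 0 for 7 of the 11 probes and for 46.8% of all tested probes. These 7 were the 2 ligands, the 4 targets and Notch4. The 4 other receptor probes had differences from 0.05 to 0.26.

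**Figure D3:**
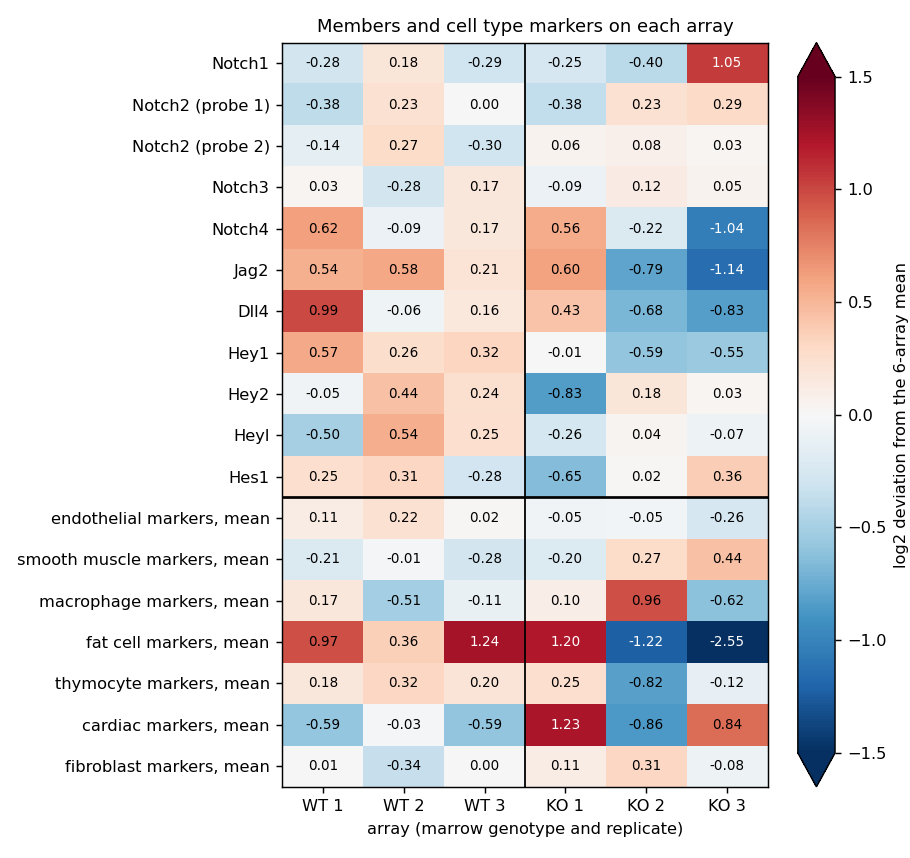
Deviation of each tested member probe, and of the mean of each cell type's markers, from its own mean over the 6 arrays (log2, colour and printed value); columns are arrays. Jag2, Dll4 and Notch4 are lowest on knockout replicates 2 and 3, where the fat-cell marker mean reads -1.22 and -2.55.

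The knockout arrays did not behave alike across the members. Relative to its own mean over the 6 arrays, Jag2 stood at 0.60 on knockout replicate 1 and at -0.79 and -1.14 on replicates 2 and 3, and Dll4 at 0.43, -0.68 and -0.83. Fat-cell markers, 10 of 10 measured, averaged 1.20, -1.22 and -2.55 on the same 3 arrays and from 0.36 to 1.24 on the wild-type arrays. Thymocyte markers, 10 of 10 tested and 7 of them well above background on all 6 arrays, averaged 0.25, -0.82 and -0.12 on the knockout arrays and 0.18 to 0.32 on the wild-type arrays. With knockout replicates 2 and 3 left out, the differences were 0.16 for Jag2, 0.07 for Dll4 and 0.33 for Notch4, each of the opposite sign. The part of fat or thymus tissue in these values was not tested.

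Hey2 and Hes1 had the other pattern, with deviations of -0.83 and -0.65 on knockout replicate 1 and between 0.02 and 0.36 on knockout replicates 2 and 3. Knockout replicate 1 had the highest mean of cardiac markers, 1.23, followed by knockout replicate 3 with 0.84, while the wild-type arrays ran from -0.59 to -0.03 and knockout replicate 2 read -0.86. Without knockout replicates 2 and 3 the difference was -1.04 for Hey2 and -0.74 for Hes1.

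Endothelial markers, 14 of 14 measured, had means of 0.11, 0.22 and 0.02 in the wild-type group against -0.05, -0.05 and -0.26 in the knockout group. The groups of this mean did not overlap, but those of most single markers did. Knockout arrays lay all below wild-type arrays for 2 of the 14, Flt1 and Esam, and all above for 0. The shares over all tested probes were 6.14% and 7.58%. Marker differences ran from -1.09 for Cdh5 to 0.17 for Gja5, with a median of -0.17. They were below 0 for 11 of the 14 and for 46.8% of all tested probes. Hey1 deviated by 0.57, 0.26 and 0.32 and by -0.01, -0.59 and -0.55 on the same arrays. Smooth muscle markers averaged from -0.28 to -0.01 with wild-type marrow and from -0.20 to 0.44 with knockout marrow, while Notch3 deviated from its mean by at most 0.28 in size on any array. Macrophage markers, 9 of 10 tested, were highest on knockout replicate 2 (0.96) and lowest on knockout replicate 3 (-0.62). Fibroblast markers, 10 of 10 tested, averaged from -0.34 to 0.01 with wild-type marrow and from -0.08 to 0.31 with knockout marrow. The part of these cell types in the member values was not tested.

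**Figure D4:**
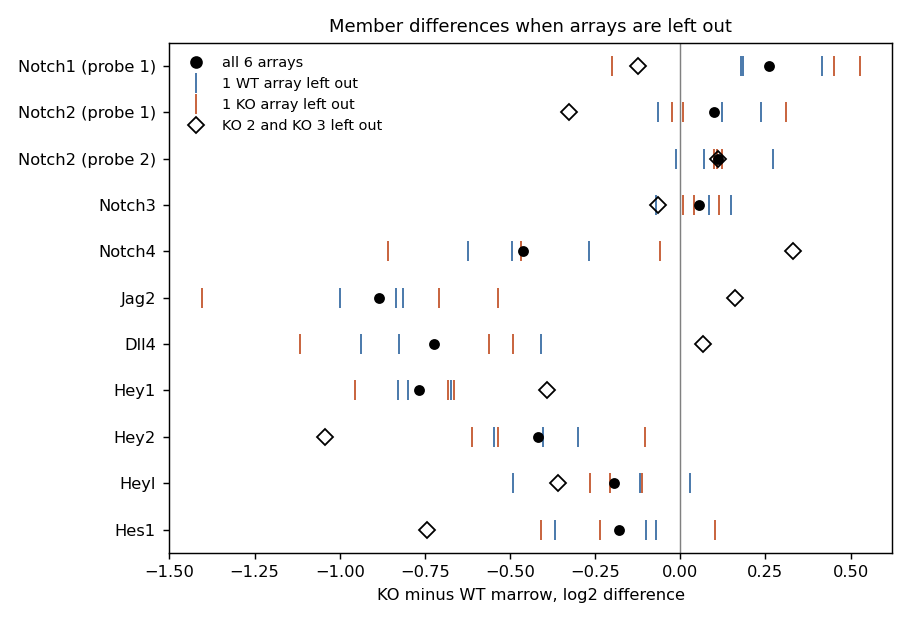
Knockout minus wild-type difference of each tested member probe (x axis, log2) with all 6 arrays (dots), with 1 array left out (ticks, coloured by the group of that array) and with knockout replicates 2 and 3 left out (diamonds). Hey1 stays between -0.95 and -0.39, while Jag2 runs from -1.41 to 0.16.

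The rest of the pathway was read from a list of 68 genes by role, members included, with the brightest tested probe of each gene. Of the 63 tested genes, 0 passed the adjusted test (limma) in either direction, and at an unadjusted p below 0.05 there were 2 higher and 2 lower. Over all tested probes, 4.44% were higher and 4.27% lower at that p, so these counts do not set the list apart. The list's median difference was 0.05, and its sign was not stable: it was -0.04 without knockout replicate 2, -0.03 without wild-type replicate 1, -0.07 without knockout replicates 2 and 3, and 0.09 without knockout replicate 1. Without wild-type replicate 3 it was 0.02, and without knockout replicate 3 it was 0.00. Knockout arrays lay all above wild-type arrays for 5 genes and all below for 6, where the shares over all tested probes were 7.58% and 6.14%. Dner and Hes3 were well above background on 0 of 6 arrays, Nrarp on 3 and Neurl3 on 4, without all 3 arrays of a group, and Aph1c had no probe under its name.

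**Figure D5:**
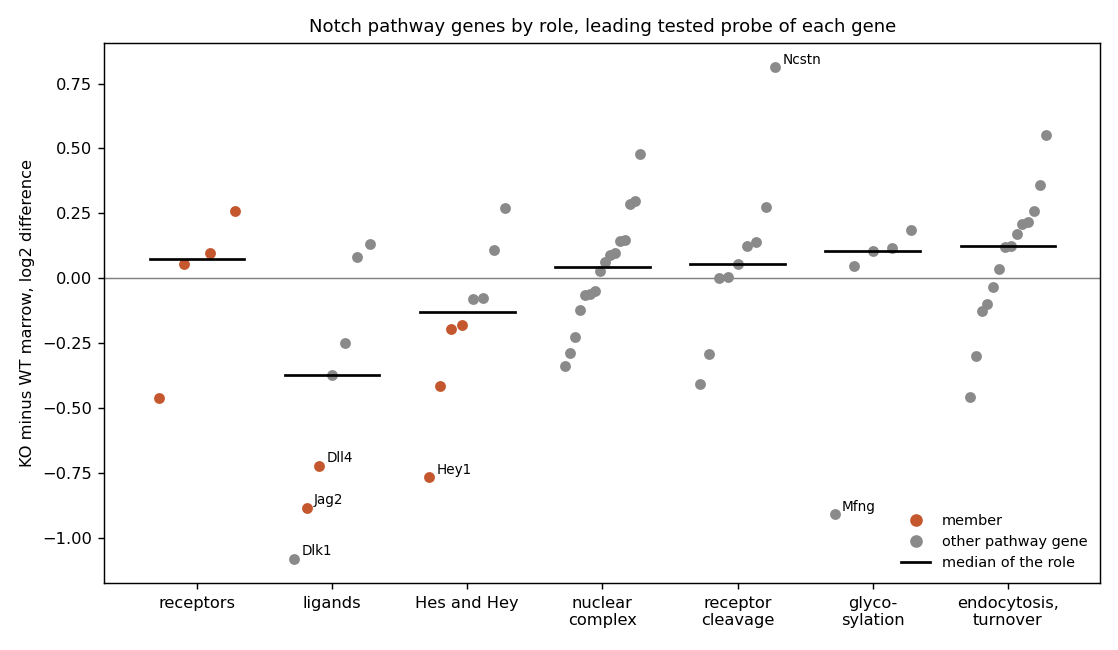
Knockout minus wild-type difference (y axis, log2) of the 63 tested pathway genes in 7 roles, members in orange, with the median of each role as a line. Ligands have a median of -0.37 and the other roles lie between -0.13 and 0.12.

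Among the ligands, the 7 tested genes had a median difference of -0.37. Jag1, the Jagged ligand of arterial endothelium and smooth muscle, read 1.04, 1.42 and 1.29 against 0.41, 1.10 and 1.11, lowest on knockout replicate 1, with a difference of -0.37 ± 0.23 (SE; limma, adjusted p = 0.677) that was -0.14 without that array. Dlk1, a ligand-like protein of preadipocytes, had wild-type levels of -1.47, -0.50 and -1.79 and knockout levels of -1.86, -1.79 and -3.34. Its groups met at -1.79 without overlapping, and the difference was -1.08 ± 0.49 (limma, adjusted p = 0.586). It was -0.57 without knockout replicate 3, -0.70 without wild-type replicate 2 and -0.51 under normexp. Dll1 and Dll3 read -0.25 ± 0.32 and 0.13 ± 0.17. Among the targets that were no members, Hes5 read 0.27 ± 0.17 and Hes6 0.11 ± 0.21 (log2 difference ± SE).

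The enzymes that cut the receptor had a median difference of 0.05 over 9 tested genes. Ncstn, which encodes the gamma-secretase subunit nicastrin, had the smallest p of the 63 genes. It stood at -3.46, -3.37 and -3.28 in the wild-type group against -2.66, -2.40 and -2.61 in the knockout group, with no overlap. The difference was 0.81 ± 0.16 (SE), 1.76-fold higher, with an unadjusted p of 0.001 and an adjusted p of 0.356 (limma), so it did not pass. This probe too was dim, and under normexp the difference was 0.49. Of further gamma-secretase subunits, Psen2 read 0.05 ± 0.16, Psenen 0.12 ± 0.15 and Aph1a -0.29 ± 0.15, the last with all knockout arrays below all wild-type arrays. The brightest Aph1b probe read -0.41 ± 0.20 with no overlap between groups, and -0.22 without knockout replicate 1, but 2 dimmer probes of Aph1b read 0.23 ± 0.31 and 0.38 ± 0.19.

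Mfng, the manic fringe enzyme that extends sugars on Notch receptors and thereby alters their response to ligands, had wild-type levels of 0.92, 0.71 and 1.11 and knockout levels of 0.63, -0.11 and -0.51. The groups did not overlap, and knockout replicates 2 and 3 were again the low arrays. Its difference was -0.91 ± 0.29 (SE), with an unadjusted p of 0.0161 and an adjusted p of 0.496 (limma). Without knockout replicates 2 and 3 the difference was -0.28. A second Mfng probe read -0.54 ± 0.24, also without overlap. The other glycosyltransferases had differences from 0.05 for Rfng to 0.19 for Poglut1.

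In the nuclear complex, Rbpj, the DNA-binding partner of the cleaved receptor, read 0.03 ± 0.24 (log2 difference ± SE). Its Mastermind co-activators differed in sign, with Maml1 at 0.14 ± 0.16, Maml2 at -0.29 ± 0.23 and Maml3 at -0.23 ± 0.33. The related histone acetyltransferases pointed in opposite directions, with Crebbp at 0.48 ± 0.18 (unadjusted p = 0.0324, adjusted p = 0.544, limma) and Ep300 at -0.34 ± 0.16 (adjusted p = 0.612), which was -0.21 under normexp. A dimmer Crebbp probe read -0.01 ± 0.17, so the difference was seen with 1 of its 2 tested probes. Among the genes of ligand endocytosis and receptor turnover, the ubiquitin ligases Dtx4 and Neurl1b had the smallest p, with 0.55 ± 0.25 and -0.46 ± 0.21 (adjusted p = 0.585 and 0.594, limma). Dtx4 read 0.36 without knockout replicate 1, and Neurl1b read -0.23 without knockout replicates 2 and 3. The median of that role was 0.12 over 14 tested genes.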

How the data were processed

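Total RNA of 6 aortic arches (100 ng each, integrity number above 7.5, per the labels) was hybridised in 1 colour, Cy3. Per the file headers, Agilent Feature Extraction 10.7.3.1 had made the processed signal, an intensity on a linear scale that the authors' software had background-subtracted and detrended, with surrogates for low values and no normalization between arrays. Values in the deposited series table matched this intensity within 0.497%. Here log2 of this intensity was set against each array's 75th percentile over non-control spots, outlier spots were left out and spots of a probe averaged. Of 55681 probes, 38339 were tested, namely those that every array of 1 group or of both groups flagged as well above background, after 10 were left out for outlier spots. Group means were compared without covariates in limma 3.58.1 (R 4.3.3) by lmFit followed by eBayes. Two-sided p-values were adjusted by Benjamini and Hochberg's method across every probe tested, with a threshold of 0.05. The procedure was also run on simulated data, and the outcome of that run is not given here. With 3 arrays per group, their number sets the precision.

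All members were named with every probe. Of other pathway genes, any past the threshold, the 2 per role with the smallest p, and Jag1 were named. Further genes of gamma-secretase, Rbpj, Maml1, Maml2, Maml3, Dll1, Dll3 and Rfng were chosen after their values were seen. The members, lists and tests were chosen with earlier results of these data known. Pathway and marker probes were named through RefSeq accessions or symbols. Each marker gene was read only by its brightest tested probe. The 16 alternatives changed background correction, normalization, filter, source table, replicate block, arrays, variance model and array weights.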

Additional observations from a re-analysis of the deposited data

How the results depend on the processing

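In each of the 16 alternatives 0 member probes and 0 of the tested pathway genes passed (limma), and 1 to 4 member probes had an unadjusted p below 0.05. The 4 arose without knockout replicate 1, where 6847 of all 38339 tested probes had such a p, against 3339 as reported. Array weights gave 3 of the 11 members beside 7163 of all tested probes, and the replicate block gave 3 beside 3041. The lowest adjusted p of a member was 0.0886, for Jag2 without knockout replicate 1. Over all probes, 1 passed as reported, 4 with normexp, 2 with median scaling, 2 with array weights, 2 with a robust variance trend, 2 without knockout replicates 2 and 3, and 0 among probes well above background on all 6 arrays, where 3007 had an unadjusted p below 0.05. With 1 array left out, the count ran from 1 to 2, the latter without knockout replicate 3.

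Signs changed under some alternatives, for small differences and for the larger ones of Jag2, Dll4 and Notch4. With 1 array left out, differences ran from -0.20 to 0.53 for Notch1, -0.0655 to 0.31 and -0.0118 to 0.27 for the Notch2 probes, -0.072 to 0.15 for Notch3, -0.49 to 0.0275 for Heyl, -0.41 to 0.10 for Hes1, -0.0481 to 0.26 for Hes6 and -0.04 to 0.48 for Poglut1. Without knockout replicates 2 and 3 together, the sign also changed for Notch1 (-0.12), the brighter Notch2 probe (-0.33), Notch3 (-0.0664), Notch4 (0.33), Jag2 (0.16), Dll4 (0.0655) and Poglut1 (-0.41), the lone knockout array being assumed to vary like the wild-type arrays. Array weights gave 0.0416 for Hes1. The cause was not tested. Hey1, Hey2 and Jag1 kept their sign under all alternatives. So did the brightest probes of Dlk1, Hes5, Ep300, Crebbp, Ncstn, Aph1b, Mfng, Neurl1b and Dtx4. For Hey1, Dlk1, Ep300, Crebbp, Ncstn, Aph1b and Mfng the groups did not overlap. Leaving arrays out or weighting them could therefore not have changed the sign for these genes.

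The labels state no pairing by replicate number. Deviations of same-numbered arrays correlated at 0.12, 0.05 and -0.28, and not every array correlated best with its own number. With 3 arrays per group, such correlations cannot decide whether the arrays were paired. With the replicate block, 1 probe passed over the whole array and the lowest adjusted p of a member was 0.57. The unadjusted p (limma) was then 0.0102 for Dll4 and 0.032 for Jag2, against 0.11 and 0.0723 without the block.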
